A study of Mus musculus with 4 samples.

Results

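The genes followed here supply amino acids and load them onto tRNA. A list of 33 was chosen by name, with earlier results of these data known. It holds 4 enzymes that make serine and asparagine, 4 folate enzymes that carry 1-carbon units and 4 genes of the ATF4 stress axis. The others are 9 amino acid transporters and 12 cytosolic aminoacyl-tRNA synthetases. Of the 33, 32 had a probe set annotated with that single symbol, out of 12394 genes in all, and 29 gave a signal above the floor on at least 1 array. They were represented by 64 probe sets, and no value of the synthetase Mars was analysed here.

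The RNA came from myogenic cells of hind-limb muscle, taken from C57BL/6 mice of 8 to 12 weeks on day 2, 3, 5 or 14 after injury with cardiotoxin, a cobra venom protein used to kill muscle fibres so that they regenerate. Every sample came from injured muscle, and the cells went to RNA without culture. SM/C-2.6, an antibody that binds satellite cells, is the 1 antibody the labels name. Each day was 1 Affymetrix mouse 430A array, and how many animals it represents was not stated in the labels.

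Cells obtain amino acids by uptake through membrane transporters and by synthesis, and aminoacyl-tRNA synthetases join amino acids to their tRNAs for use by the ribosome. Serine is made from a glycolytic intermediate, and its conversion to glycine feeds the folate cycle, which supplies carbon for nucleotides. When charged tRNA runs short, the kinase GCN2 phosphorylates eIF2alpha, which favours translation of ATF4, a transcription factor that activates many synthetase, transporter and synthesis genes. After muscle injury satellite cells leave quiescence, divide, and then either fuse into fibres or return to rest.

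With 1 array a day there was no spread between samples, so no test was made. A gene was called where 2 arrays differed by at least 2-fold after scaling. Signals below 43.0, the pooled median of all scaled values, were raised to that floor, and where 1 of the arrays sat there the ratio is written with "at least". Genes below it on both arrays of a pair had no ratio. As a yardstick of measurement error, the SD of the log2 ratio among probe sets of the same gene was 0.36, 0.37 and 0.32 for the successive steps (days 2 to 3, 3 to 5 and 5 to 14) and 0.55 over the whole course from day 2 to day 14. It describes disagreement within an array pair and not variation between animals. Levels are compared between days for 1 probe set and never between genes.

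The arrays differed in ways that lie across the same days. Between 6258 and 7439 genes were above the floor, fewest on day 2 and most on day 14. The 3′ to 5′ signal ratio of Gapdh was 2.17 and 1.88 on days 2 and 3 but 2.87 and 2.84 on days 5 and 14, while that of Actb lay between 1.80 and 2.20. Of 9 myogenic markers (Myod1 and Des among them), 8 were above the floor on day 2 and all 9 afterwards. Pax7 was the 1 below it on day 2, at 35.7, and then read 59.4, 217 and 323. The myogenic sum was 8352, 15694, 12114 and 11013 on days 2, 3, 5 and 14. Single markers differed in course: Myod1 read 2272, 1405, 500.2 and 935, and Myog 261, 3876, 1839 and 1835. The summed signal of 9 fibroblast markers went from 1434 on day 2 to 3835, 11791 and 17972 on days 3, 5 and 14, with 3, 5, 7 and 7 of them above the floor and Clec3b never. This sum rests mostly on Col3a1 (1201 on day 2, 8751 on day 14) and, by day 14, on Dpt (32.5 and 5877). From day 5 to day 14 Pdgfra was level (105 and 104) and Cd248 and Dpep1 were lower, while the others were higher. The sum of 9 macrophage markers was 245, 641, 1715 and 1692 on days 2, 3, 5 and 14. Of these, 3, 6, 7 and 7 were above the floor, and Itgam and Fcgr1 never were. Endothelial markers summed to between 113 and 676, with 0, 1, 3 and 4 of 8 above the floor and Pecam1, Cdh5, Tie1 and Emcn never, and no neutrophil, lymphocyte or erythroid marker reached it on any day. The part of these shifts in the results below was not tested. In RNA from a bulk sample, fewer cells of a type and less RNA per cell cannot be told apart.

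Promoter sequence was examined because several of these genes share a short element, TGATGNAA, to which ATF4 binds with C/EBP partners. The RefSeq windows of assembly GRCm38.p6 run from 250 bases before the annotated start to 50 after it, and 25 of the 32 genes had one. On either strand, TGATGNAA stood in 9 of these 25 genes: Asns, Trib3, Slc7a11, Slc1a4, Aars, Gars, Iars, Tars and Yars. Among all RefSeq windows, 4.51% of 27025 genes held it. Its narrower form TGATGCAA, counted within those matches, stood in 6 of the 25 genes against 1.03% of all genes. By role, 5 of 7 synthetases and 2 of 6 transporters held TGATGNAA. Among the other roles it stood in 1 of 4 synthesis genes, 1 of 4 genes of the ATF4 axis and 0 of 4 folate genes. The E-box CACGTG stood in 3 of 25 (Aars, Iars and Tars) against 8.09% of all genes, and TGACGTCA in 0 of 25 against 2.03%. A match describes letters only, and its absence from a window says nothing of the factor.

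Stretches from 120 bases before the start to 20 after it are shown for 7 genes, from the synthesis gene Asns to the synthetase Yars. Slc7a11 was under the floor on every array, and the time courses of the others differ below. Each stretch reads 5′ to 3′ along the gene's own strand, from RefSeq GRCm38.p6. Capitals mark TGATGNAA or, where it lies on the opposite strand, its reverse complement.
Asns, chr6:7693190-7693329, reverse strand: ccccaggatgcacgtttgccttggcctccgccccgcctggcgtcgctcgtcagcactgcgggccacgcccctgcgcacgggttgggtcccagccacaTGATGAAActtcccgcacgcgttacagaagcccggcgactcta
Slc7a11, chr3:50443594-50443733, reverse strand: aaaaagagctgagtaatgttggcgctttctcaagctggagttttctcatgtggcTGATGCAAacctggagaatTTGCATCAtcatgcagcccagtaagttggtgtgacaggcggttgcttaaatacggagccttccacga
Slc1a4, chr11:20332694-20332833, reverse strand: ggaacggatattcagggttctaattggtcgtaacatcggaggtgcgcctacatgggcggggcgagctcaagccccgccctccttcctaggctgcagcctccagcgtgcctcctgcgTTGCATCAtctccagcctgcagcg
Aars, chr8:111033722-111033861, forward strand: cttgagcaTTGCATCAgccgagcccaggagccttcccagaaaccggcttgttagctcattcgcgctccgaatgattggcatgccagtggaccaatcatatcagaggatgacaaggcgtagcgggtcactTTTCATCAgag
Iars, chr13:49682010-49682149, forward strand: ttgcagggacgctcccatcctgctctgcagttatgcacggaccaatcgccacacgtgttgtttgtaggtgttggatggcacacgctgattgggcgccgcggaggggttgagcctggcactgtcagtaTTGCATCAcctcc
Tars, chr15:11399639-11399778, reverse strand: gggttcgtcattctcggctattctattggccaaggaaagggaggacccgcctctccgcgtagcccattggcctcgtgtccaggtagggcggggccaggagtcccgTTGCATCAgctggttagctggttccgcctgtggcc
Yars, chr4:129189783-129189922, forward strand: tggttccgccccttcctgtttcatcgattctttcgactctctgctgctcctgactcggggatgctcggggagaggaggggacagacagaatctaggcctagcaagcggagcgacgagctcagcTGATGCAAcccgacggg
In Asns the element began 23 bases before the start, and in Tars 15 before. Slc7a11 held a pair, at 66 and 47 bases before, in opposite orientation. Aars also held 2, at 112 before and 10 after. In Slc1a4 the element began 4 bases before the start and ran across it, while in Yars it began 4 after and in Iars 8 after.

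All 8 synthesis and folate enzymes were lower on day 5 than on day 3. Their median log2 ratio was -1.64, with a range of -1.75 to -1.03, against a median of 0.06 over all 7523 genes measured, of which 5.97% were lower by at least 2-fold and 11.6% higher. On day 14 all 8 were again lower than on day 2, with a median of -2.54 and a range of -3.30 to -1.71, where 14.8% of 7668 genes were lower, 22.8% were higher and the median of all was 0.20. The 8 genes lay closer together in the first of these comparisons than in the second.

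Asns, which makes asparagine from aspartate and glutamine, had scaled signals of 1018, 814, 244 and 103 on days 2, 3, 5 and 14. The signal was lower on each day than on the day before, 3.34-fold from day 3 to day 5 and 2.37-fold from day 5 to day 14. Among the 8 enzymes it was the 1 called between days 5 and 14. Its fold of 9.87 from day 2 to day 14 was the highest among the members, with Mthfd2 next at 9.79.

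Serine synthesis has 3 steps, and all 3 enzymes were called lower on day 5. Phgdh, the first and committed enzyme, read 2803, 3449.8, 1075 and 565 on days 2, 3, 5 and 14. It was the 1 enzyme of the 8 with its highest signal on day 3, 1.23-fold above day 2, and it was 3.21-fold lower on day 5 than on day 3. Its 4 probe sets are all of the type that may hybridise with related sequences. They were all lower on day 5 (log2 -1.68 to -1.18), but the weakest of them was 2.10-fold higher on day 3 than on day 2 and had a log2 ratio of only -0.66 for day 14 against day 2. Psat1, the aminotransferase of the second step, read 2021, 1177, 381 and 369, so that days 5 and 14 differed by a log2 ratio of -0.05. Psph, the phosphatase of the last step, read 329.7, 307, 116 and 101. The step from day 3 to day 5 was the largest for all 3, at 3.09-fold for Psat1 and 2.65-fold for Psph. Psat1 was also 1.72-fold lower on day 3 than on day 2, while Phgdh was a further 1.90-fold lower on day 14 than on day 5.

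The folate enzymes were already below day 2 on day 3, all 4 of them, with a median log2 ratio of -0.87 where the serine and asparagine enzymes had -0.21. Shmt1, the cytosolic enzyme that turns serine into glycine, read 744, 354, 112 and 80.7 and was the 1 folate gene called on day 3, at 2.10-fold lower. It was 9.21-fold lower on day 14 than on day 2, while its other 3 measured probe sets gave log2 ratios of -1.57, -2.38 and -1.57 for the same comparison against -3.20. The first of these 3 was under the floor from day 3 on, so its -1.57 is a bound and it had no ratio for day 5 against day 3. With the mean of all Shmt1 probe sets, that one included, the day 5 against day 3 log2 ratio was -0.86, short of the call, rather than -1.65. Shmt2, its mitochondrial counterpart, read 1428, 783, 383 and 231, a 6.19-fold difference over the course. Its call on day 5 was at 2.04-fold and was lost with the values as deposited (log2 -0.73). Mthfd2, the mitochondrial dehydrogenase and cyclohydrolase of the cycle, read 1559, 852, 254 and 159, and its 3.36-fold step to day 5 was level with that of Asns. Mthfd1, the cytosolic enzyme with 3 activities, read 1823, 1092, 453 and 443. The folate gene order by fold over the course was Shmt1 and Mthfd2 (9.79-fold), then Shmt2, then Mthfd1 (4.11-fold), and the gap between the first pair is within the disagreement of probe sets.

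**Figure D1:**
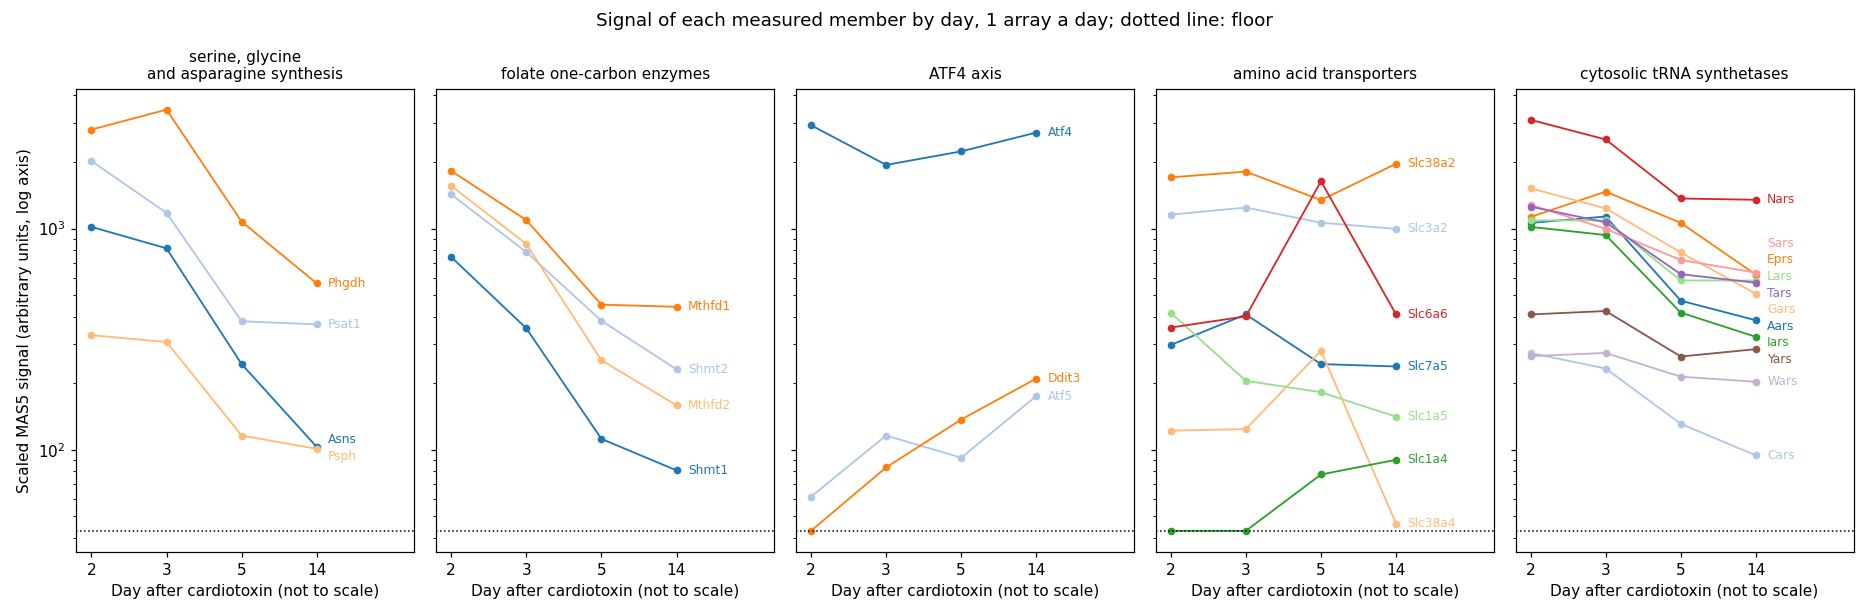
Scaled signal of each measured gene on a log axis against day after injury, in 1 panel per role, with days equally spaced, 1 point per array and the dotted line at the floor of 43.0. All 8 synthesis and folate enzymes are lower on day 5 than on day 3, Atf4 stays within 2-fold of its day 2 level, and Slc6a6 and Slc38a4 peak on day 5.

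Atf4, whose product acts on many of these genes and is controlled largely at translation, stayed within 2-fold between arrays. Its lowest signal was on day 3, 1.51-fold below day 2. Atf4 read 2934, 1940.4, 2234 and 2718 on days 2, 3, 5 and 14, and day 14 was 1.08-fold below day 2. A second probe set read 600.2, 375, 468 and 672, also lowest on day 3 and within 2-fold throughout. The message level does not report the amount of ATF4 protein. On day 14 against day 2, neither of the other measured genes of the axis had the direction of the synthesis enzymes. Ddit3, which encodes CHOP, a factor of prolonged stress, was under the floor on day 2 at 40.5 and then read 83.2, 137 and 209.9, at least 4.89-fold higher on day 14 than on day 2. Atf5, a related bZIP factor, read 61.3, 116, 92.1 and 175, a 2.85-fold difference over the course. Between days 3 and 5 it was 1.26-fold lower, the direction of the enzymes, without reaching 2-fold. Trib3, a pseudokinase induced by ATF4 and CHOP, lay between 4.08 and 26.1, under the floor on every array.

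The 9 transporters did not share a course. Their median log2 ratio stayed between -0.21 and 0.10 in the 4 comparisons. Of the 7 measured, 2 were called higher on day 5 than on day 3, where 11.6% of all genes were. Both of these were called lower on day 14 than on day 5, where 3.10% of all genes were. Slc6a6, the taurine transporter, read 357, 401, 1638 and 409, so it was 4.08-fold higher on day 5 than on day 3 and 4.01-fold lower on day 14. Day 5 stood alone, and the other 3 arrays lay close together. Its other 2 probe sets were under the floor on all arrays, and with the mean of all 3 the log2 ratios became 0.68 and -0.67, both short of the call. Slc38a4, a sodium-coupled carrier of neutral amino acids and an imprinted gene in mouse, read 122, 124, 279.9 and 46.4. It was 2.25-fold higher on day 5 and 6.03-fold lower on day 14. A second probe set had the same day 5 peak, at 48.6, 55.1, 190.2 and 42.0, but gave -0.18 rather than -1.39 for day 14 against day 2.

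Among carriers of small neutral amino acids, Slc1a5 was lower and its relative Slc1a4 was near the floor. Slc1a5, which carries glutamine, read 416, 205, 182 and 141, was called on day 3 at 2.02-fold lower, and was 2.95-fold lower by day 14. Slc1a4, a serine and alanine carrier, was under the floor at 37.8 and 40.3 on days 2 and 3 and read 77.3 and 90.1 on days 5 and 14, at least 2.10-fold higher on day 14 than on day 2. That call held in 4 of 8 alternatives and went down to a log2 ratio of 0.07 with the floor doubled, 0.36 with the mean of all probe sets and 0.55 with quantile normalization. Its other 2 probe sets were never above the floor.

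The leucine exchanger and the main neutral carrier stayed within 2-fold between every pair of arrays compared. Slc7a5, the exchanger's light chain, read 298, 409, 244 and 238, and Slc3a2, its heavy chain, read 1156, 1245, 1063 and 997. Slc38a2, the carrier that adapts to amino acid shortage, read 1705, 1809.7, 1345 and 1964. Its log2 ratio of day 14 to day 2 was 0.20, equal to the median of all genes. Slc7a1, for cationic amino acids, and Slc7a11, for cystine, reached at most 16.8 and 16.7 and were never above the floor, although Slc7a11 holds a pair of the promoter element.

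By the probe set that represents it, each of the 11 measured synthetases was below day 3 on day 5. Each was also below day 2 on day 14, and both differences were smaller than those of the synthesis enzymes. The median log2 ratio was -0.78 for day 5 against day 3, with 2 of 11 called lower (5.97% of all genes were). For day 14 against day 2 it was -1.14, with 7 of 11 called lower (14.8% of all genes were). No synthetase was called in the other 2 comparisons. Between days 2 and 3 the signs were mixed, 7 below 0 and 4 not below 0, with a median of -0.12. Not every other probe set had the day 5 difference. For day 5 against day 3, the other 2 of Eprs gave log2 ratios of -0.02 and 0.05, and 1 of Wars gave -0.04.

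The synthetases called on day 5 were Aars, for alanine, and Iars, for isoleucine. Aars read 1061, 1134, 472 and 385, a 2.40-fold difference between days 3 and 5, and Iars read 1018, 935, 417 and 324, a 2.24-fold difference. Both were near the threshold: a second probe set of each gave 1.95-fold and 1.76-fold. Iars also had the highest fold of the synthetases over the course, 3.14. Gars, for glycine, read 1520.3, 1235, 780 and 507, lower on each array than on the one before, and was 3.00-fold lower on day 14 than on day 2. Cars, for cysteine, read 274, 233, 131 and 94.3, 2.90-fold lower over the course, and its log2 ratio was -0.77 with the mean of all probe sets, the other being under the floor. These 4 genes differ in fold by less than the disagreement of probe sets.

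Nars, for asparagine, read 3103, 2529, 1368 and 1349.6 and was 2.30-fold lower on day 14 than on day 2. Its tRNA takes the product of Asns, which was 9.87-fold lower. Tars, for threonine, read 1257, 1067, 622 and 569, a 2.21-fold difference. Sars, which charges serine, read 1281, 997, 721 and 632 and sat at the threshold with 2.03-fold, a call lost with quantile normalization (log2 -0.87). The serine enzymes Phgdh, Psat1 and Psph were 4.96-fold, 5.48-fold and 3.26-fold lower in the same comparison.

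The remaining 4 synthetases were not called in any of these 4 comparisons. Lars, for leucine, read 1089 on days 2 and 3 and then 583 and 582, a single step of 0.90 log2 with flat signals on either side. Eprs, which charges both glutamate and proline, read 1128, 1469.8, 1061 and 619, but its other 2 probe sets were below day 2 on day 3 rather than above it. Of those 2, 1 was past the threshold for day 14 against day 2, at 2.01-fold lower. Yars, for tyrosine, read 409, 424, 264 and 285, with its lowest signal on day 5. Wars, for tryptophan and inducible by interferon, read 265, 274, 214 and 203 and had the smallest difference of the synthetases over the course, 1.30-fold. Of the 7 synthetases with a promoter window, the 5 that held TGATGNAA had day 14 against day 2 log2 ratios of -1.65 (Iars), -1.58 (Gars), -1.46 (Aars), -1.14 (Tars) and -0.52 (Yars). The 2 without it, Sars and Eprs, had -1.02 and -0.86, between Tars and Yars.

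**Figure D2:**
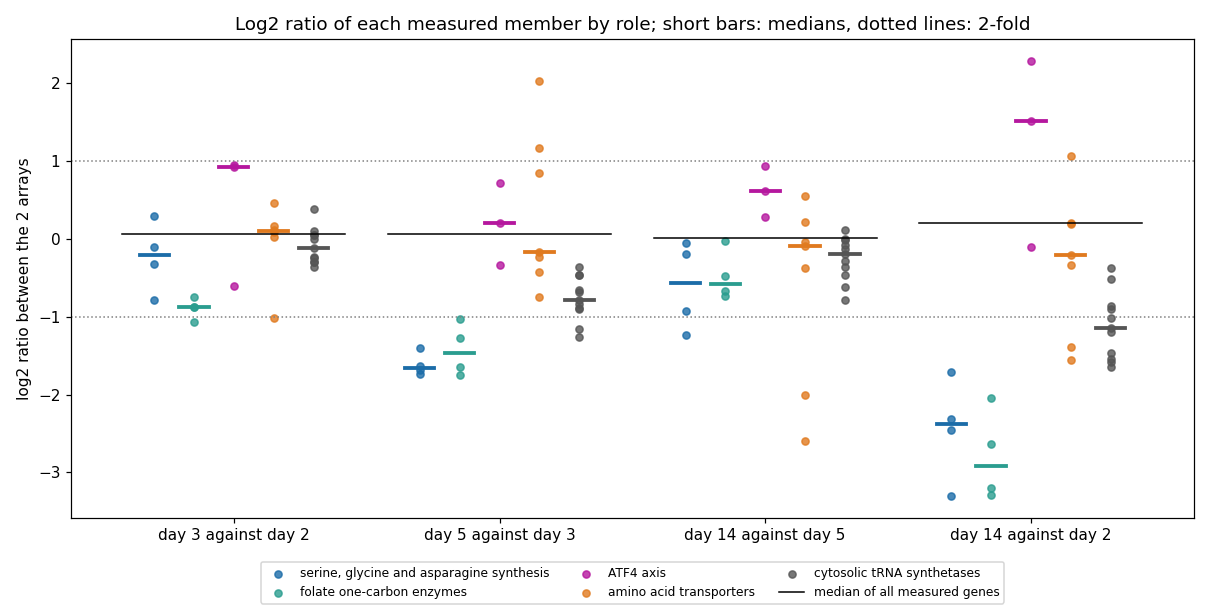
log2 ratio of every measured gene by role in the 4 comparisons, with 1 point per gene, short bars at the role medians, a black line at the median of all genes and dotted lines at 2-fold. The synthesis and folate genes lie below the 2-fold line in day 5 against day 3 and in day 14 against day 2, the synthetases lie on both sides of that line, and the transporters lie on both sides.

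Over all the members together, 2 of 28 measured genes were called lower and 0 higher on day 3 against day 2, where 1.80% of all genes were lower and 6.69% higher. Both, Shmt1 and Slc1a5, lost the call with quantile normalization. On day 5 against day 3, 10 of 29 were lower, 34.5%, and 2 were higher, where 5.97% of all genes were lower and 11.6% higher. On day 14 against day 5, 3 of 29 were lower and 0 higher, where 3.10% of all genes were lower and 4.81% higher. On day 14 against day 2, 17 of 29 were lower, 58.6%, and 3 were higher, 10.3%, where 14.8% of all genes were lower and 22.8% higher. The medians were -0.11, -0.74, -0.19 and -1.20, and after subtracting the median of all genes in the same comparison they were -0.18, -0.80, -0.20 and -1.40. Without scaling, as deposited, 6 were lower and 3 higher on day 5, so that 66.7% of the member calls were lower instead of 83.3%. The calls lost were those of Shmt2, Mthfd1, Aars and Iars, with log2 ratios of -0.73 to -0.96. That choice moves the median of all genes by 0.27 in the same comparison, and the members' median less that of all genes was then -0.77. The members were chosen with earlier results of these data known, so their shares above describe the list and are not independent of the data.

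The comparisons share arrays, so their counts are not separate evidence. The course of single genes was read from all 4 arrays instead. Of the 29 measured members, 16 had their highest signal on day 2 (55.2%, against 26.9% of 7930 genes) and 22 their lowest on day 14 (75.9% against 25.5%). Ties at the floor went to the earliest day, so a gene at the floor on days 2 and 14 was not counted as lowest on day 14. The signal was lower at every step in 15 of them, 51.7%, against 13.8% of all genes: all 4 folate enzymes, 3 of the 4 synthesis enzymes and 7 of the 11 synthetases among them. This count takes any decrease, however small, and includes Lars, whose steps to day 3 and to day 14 were each 0.00 log2 after rounding. A gene at the floor on successive arrays could not enter it. Of the 17 called lower on day 14 than on day 2, 15 had their largest step between days 3 and 5, while Slc1a5 had it by day 3 and Slc38a4 after day 5.

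The labels of days 2 and 5 are worded alike, as are those of days 3 and 14, and each of the 4 comparisons above crosses that line. Whether the arrays were also processed in such pairs was not stated. Within the pairs, all 8 synthesis and folate enzymes were lower on day 5 than on day 2 and lower on day 14 than on day 3. Of 29 members, 14 were lower and 3 higher on day 5 against day 2, where 11.4% of all genes were lower and 19.8% higher. On day 14 against day 3, 14 were lower and 2 higher, where 11.5% and 16.3% of all genes were. The synthetase medians in these pairs were -0.96 and -0.91, with 5 of 11 called lower in each, Eprs among them on day 14 against day 3.

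Probe sets of the same gene were compared to see how far the result rests on the one chosen. In each comparison 15 members had several measured probe sets, and all of a gene's probe sets had 1 sign in 13, 14, 12 and 14 of them, in the order of the comparisons above. Asns had a second probe set at 651, 463, 133 and 40.9, again lower at each step, and the second set of Mthfd2 read 1154, 784, 298 and 109.7.

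**Figure D3:**
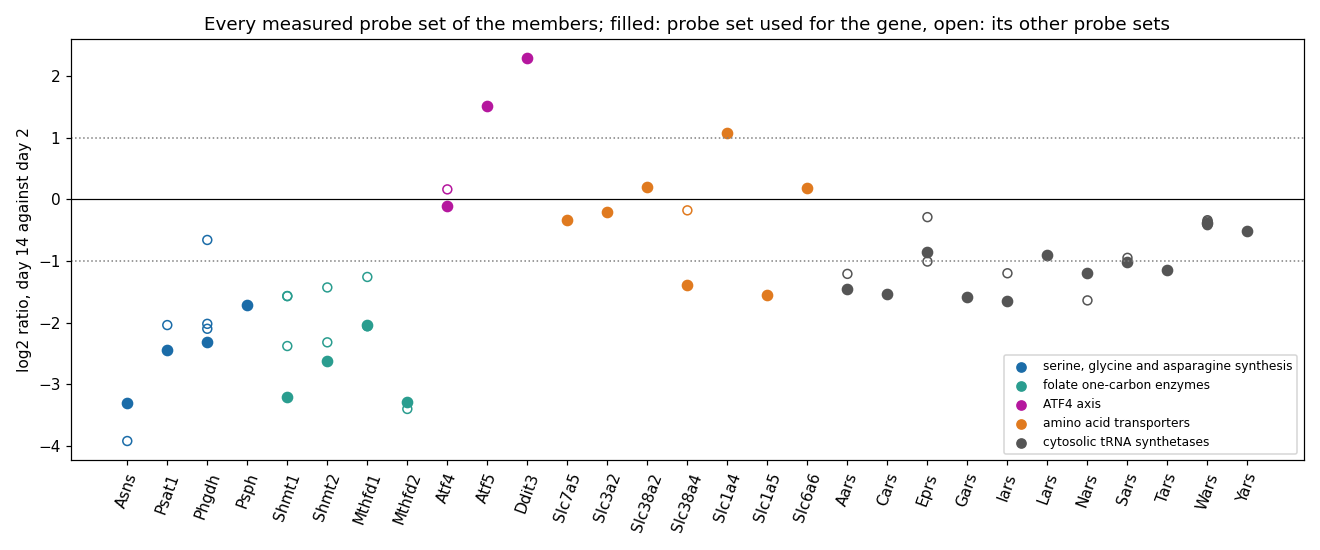
log2 ratio of day 14 to day 2 for every measured probe set, with filled points for the probe set that represents the gene and open points for the others, and dotted lines at 2-fold. All measured probe sets of the 8 synthesis and folate genes lie below 0, and the probe sets of Phgdh (-2.31 to -0.66) and Shmt1 (-3.20 to -1.57) are spread furthest among them.

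Genes of neighbouring pathways, from lists chosen for their function and also with earlier results of these data known, were set beside the members. In day 14 against day 2 the shares of all genes, against which each list is to be read, were 14.8% lower and 22.8% higher. The 7 other cytosolic synthetases on the array had a median log2 ratio of -0.90 on day 14 against day 2, with 3 lower and 0 higher: Rars (2.94-fold), Farsb (2.87-fold) and Kars (2.85-fold). The scaffold proteins that hold several synthetases in 1 complex had a median of -1.54, with Eef1e1 at 1155, 715, 429.7 and 337 and Aimp2 at 1312, 768, 517 and 453, and 2 of 3 called lower. Of 8 mitochondrial synthetases measured, 1 was called lower, Sars2 at 2.86-fold, a share of 12.5% and thus near that of all genes, and their median was -0.81. The list of other folate, methionine and thymidylate genes had 6 measured, without a thymidylate enzyme. Of these 6, 4 were called lower on day 5 against day 3, where 5.97% of all genes were. Among those 4, Mtrr was under the floor on day 5 and lower by at least 2.29-fold. Over the course 4 of 6 were called lower. Gcsh, of the glycine cleavage system, read 2961, 1157, 784 and 659.7 and was already 2.56-fold lower on day 3. Gart, a purine enzyme that uses folate, read 1722, 1158, 534 and 454.

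Of 14 other genes reported as targets of ATF4 and CHOP that were measured on day 14 against day 2, 8 were higher and 0 lower, where 22.8% of all genes were higher and 14.8% lower. Their median log2 ratio was 1.46, against 0.20 over all genes, and 4 of the 14 were below 0 without reaching 2-fold. The lowest was Xpot, an exporter of tRNA from the nucleus, which read 361, 295, 219.5 and 210.2, a log2 ratio of -0.78. Aldh18a1 had -0.53, and Chac1 and Cth, both under the floor on day 14, had -0.70 and -0.37 as bounds. Atf3, a stress factor and also an immediate early gene, read 75.3, 103, 327 and 1958, 26.0-fold higher. Cebpb, a C/EBP partner of ATF4, read 53.0, 119, 163 and 849.8, lower on day 2 than on every later array. Ppp1r15a, which directs the dephosphorylation of eIF2alpha, read 343, 590.0, 1044 and 3091. The list holds genes that also respond to cell isolation and to other stresses, and the part of handling was not tested. Among the eIF2alpha kinases and their partners, Eif2ak3, which encodes the endoplasmic reticulum kinase PERK, read 94.1, 99.5, 246 and 278, a 2.95-fold difference. Impact, an inhibitor of GCN2 signalling, read 112, 257, 239 and 230.2, 2.05-fold higher on day 14 than on day 2. Eif2ak4, the gene of GCN2 itself, read 66.8 on day 2 and was under the floor afterwards.

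Of 13 genes of the unfolded protein response, 5 were higher and 0 lower on day 14 than on day 2, with a median of 0.71, where 22.8% of all genes were higher and 14.8% lower. Dnajb9, an endoplasmic reticulum co-chaperone, was 6.07-fold higher, and Xbp1, a transcription factor of the response, 3.52-fold higher. Among genes of amino acid sensing by mTORC1, 3 of 14 were higher and 1 lower, shares of 21.4% and 7.14% that are near or below those of all genes. Sesn1, a sestrin that restrains mTORC1, read 131, 172, 419.8 and 987, and Sesn3 was 2.98-fold higher over the course. Eif4ebp1, a repressor of translation initiation and also a reported ATF4 target, read 1906, 1724, 974 and 561, the direction of the synthetases.

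Enzymes of glutamine, glutamate, aspartate, arginine and branched-chain metabolism had a median of -0.10, with 3 lower and 2 higher of 10 on day 14 against day 2, where 14.8% of all genes were lower and 22.8% higher. Got1, the cytosolic enzyme that makes aspartate, the precursor of asparagine, read 830.2, 677, 243 and 119, 6.96-fold lower. Bcat1, the cytosolic branched-chain aminotransferase, read 460.2, 328, 194 and 97.9. Glul, which makes glutamine, was in the other direction, at 582, 461, 752 and 1826. Of 7 other amino acid transporters, Slc38a1, a glutamine carrier, was 3.68-fold lower and 2 were higher by at least 2.01-fold, Slc7a7 and Slc7a8, both from under the floor. In the Myc family, Myc, an activator of growth genes, read 347, 356, 640.1 and 1161, 3.34-fold higher on day 14, and Mxd4, an antagonist of Myc, read 47.0, 221, 833 and 782, 16.6-fold higher. These were the 2 called of 7 measured, 28.6%, against 22.8% of all genes.

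**Figure D4:**
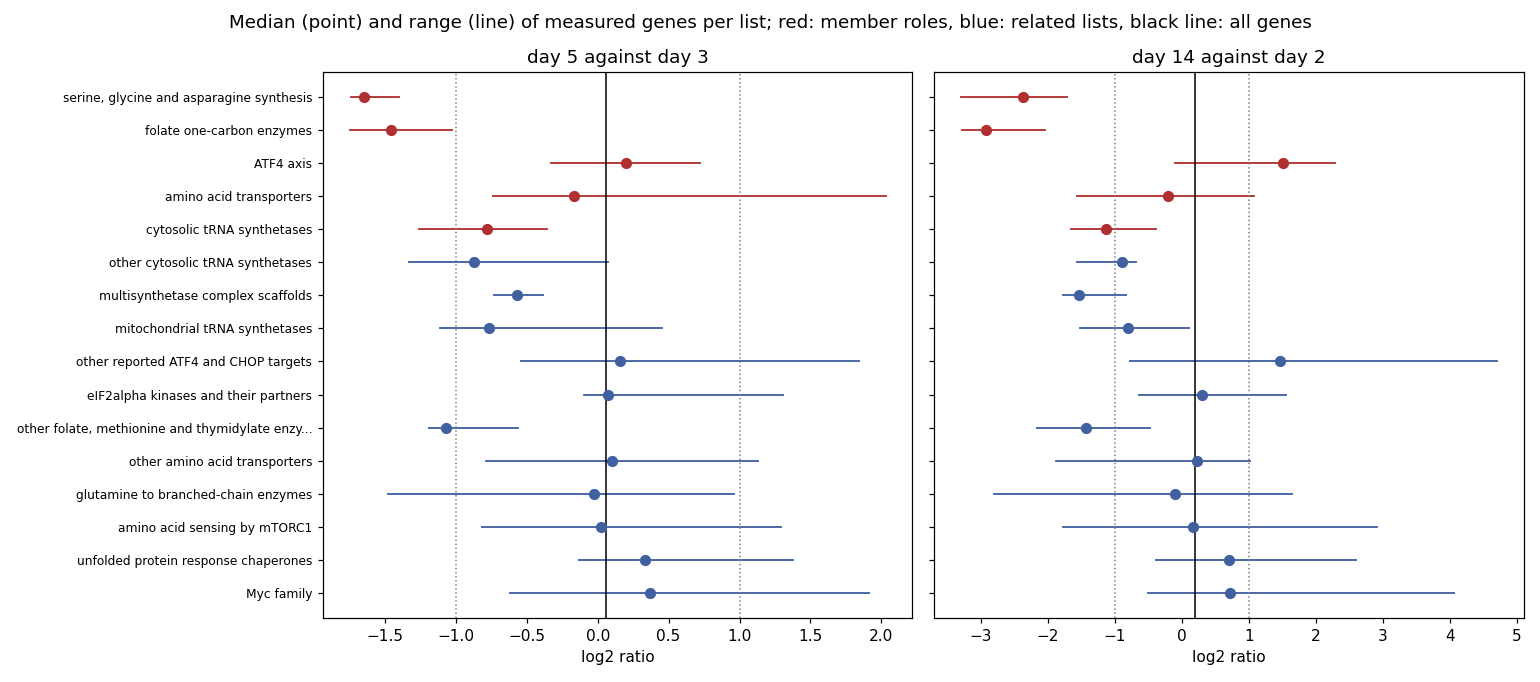
Median log2 ratio of each gene list (points) with the lowest and highest gene (lines) for day 5 against day 3 and day 14 against day 2, on separate horizontal scales, with the 5 groups of members in red and the related lists in blue. The synthesis and folate groups lie furthest to the left, and the ATF4 axis and the other ATF4 and CHOP targets lie to the right of 0.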

How the data were processed

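The authors deposited intensities on a linear scale (0 to 15686), with 1 signal for every probe set of an array. They were made with MAS5, per the submitters' processing notes, and its settings were not stated. Per the labels' protocols, RNA was labelled with a small sample assay. Arrays carry no read depth, and having 1 a day limits the precision. Arrays were brought to 1 shared trimmed mean (2% trimmed, factors 0.997, 1.13, 0.917 and 0.976), values were raised to the floor of 43.0, and log2 ratios were taken with Python 3.11.15, pandas 2.3.3 and numpy 2.4.6. The script was checked on simulated data.

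Of 22690 probe sets, 20393 had 1 gene symbol in the platform annotation, 691 had several and 1606 were unnamed. Controls numbered 64 in all, and not all of these were unnamed. Of several probe sets, the one highest on average in log2 signal represented its gene. All members could be named, and of each related list at most 4 called genes per comparison with the largest ratios; Eif2ak4, Xpot, Aldh18a1, Chac1 and Cth were added after their values were seen. Members and lists were chosen with earlier results of these data known. Days were compared in sequence and day 14 with day 2, with no test; 11 alternatives were planned, and 1 (leaving out probe sets of the _x_at and _s_at types) and the comparisons of days with like-worded labels were added after seeing the data.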

Additional observations from a re-analysis of the deposited data

How the results depend on the processing

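No paired analysis was possible because each day had 1 array, and for the same reason no replicate could be left out. No gene's called ratio changed sign under any alternative: of 1133 values for single members, 1094 kept their side of the 2-fold threshold, 30 lost the call and 9 gained it, and 23 of 37 calls held in every alternative. The members' median kept its sign throughout and ran from -0.77 to -0.44 for day 5 against day 3 and from -1.39 to -0.98 for day 14 against day 2.

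The counts moved with the threshold. At 1.5-fold, lower members numbered 7 on day 3 against day 2, 17 on day 5 against day 3 and 8 on day 14 against day 5, and higher ones 2, 4 and 2. At 3-fold, lower members numbered 0, 5 and, on day 14 against day 2, 9, with 1 higher on day 5 and 1 on day 14 against day 2. Shares of all genes at 1.5-fold and 3-fold are not given here, so these counts show only the dependence on the threshold. As deposited, 4 were lower on day 3 and 6 on day 5. For day 3, quantile normalization left 0 lower and a pseudocount of 16 left 1, while halving the floor gave 1 higher. With the mean of all probe sets, or the second one, 1 was higher on day 5. Among genes above the floor on both arrays, 1 was higher on day 14 than on day 2. Quantile normalization moved the median of all genes by -0.18 for day 14 against day 2 and as-deposited values by -0.18 for day 3. Calls lost in some alternatives include, at their smallest, Iars and Shmt2 on day 5 (log2 -0.82 and -0.73) and Sars and Slc38a4 on day 14 against day 2 (-0.87 and -0.18). Ratios near the floor are limited by signal over background.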
